A study of Mus musculus and Homo sapiens with 34 samples.

Results

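The genes described here encode 10 proteins of cell junctions and cell adhesion: the cadherins CDH1 (E-cadherin), CDH2 (N-cadherin) and CDH17 (LI-cadherin), the claudins CLDN1, CLDN4 and CLDN7, occludin (OCLN), the junctional adhesion molecule F11R (JAM-A), the scaffold TJP1 (ZO-1) and the adhesion protein EPCAM. They were chosen as a list of names, matched to the gene symbols of the count tables with case ignored. All 10 were found once in each table, among 58870 human genes and 55450 mouse genes. The study compared spheroids of 3 colorectal carcinoma lines grown with a decellularised matrix (SIS ECM) with spheroids of the cells alone, and asked what the matrix does to the cells' transcriptome. The lines were CT26 and MC38 from mouse and HT29 from human. Every group was grown in ultra-low attachment U-bottom plates and collected after 7 days, and each tube pooled 10 spheroids. The labels name no added gene, deletion or drug in any group, and each line is a single established cell line. CT26 and HT29 had 6 libraries with cells alone and 6 with SIS ECM, and MC38 had 5 of each (cells alone 1 to 5; SIS ECM 1, 3, 4, 5 and 6).

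In an epithelium, cadherins join neighbouring cells at the adherens junction through their outer domains and bind catenins inside the cell. Claudins, occludin and JAM-A lie at or beside the tight junction, which seals the space between cells, and ZO-1 ties that seal to the actin cytoskeleton. EPCAM lies along the lateral membrane of intestinal epithelial cells and associates with claudin-7, and LI-cadherin is typical of the intestine. Cells that lose epithelial character often lose E-cadherin and carry N-cadherin. Repressors of the SNAI and ZEB families can shut off epithelial genes by binding the E-box CAGGTG in their promoters.

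Library totals ran from 15.8 to 24.2 in mouse and from 25.5 to 37.0 in human, in units of 1e6 expected counts. In both mouse lines, libraries numbered 1 to 3 stood apart from those numbered 4 to 6. The median share of mitochondrially encoded counts was 4.53% against 8.06% in CT26 and 3.75% against 6.00% in MC38, but 6.30% against 6.44% in HT29. The labels do not call these ranges a batch, and the comparison of SIS ECM with cells alone was also computed within them for each line. The comparisons between lines were not computed within the ranges. Of 10 colorectal epithelium markers, which include Cdh17 and Epcam, Epcam was at 0 in CT26, and Krt19, Krt20, Cdx2 and Epcam were at 0 in MC38. Their summed level ran from 47.8 to 88.6 CPM (counts per 1e6 counts of the library) in CT26, from 0.447 to 1.15 in MC38 and from 8364 to 10670 in HT29. Markers of endothelium summed to at most 1.10 CPM in CT26 and 5.71 in MC38, those of smooth muscle to at most 0.610 in CT26, 0.588 in MC38 and 2.24 in HT29, and those of leukocytes to at most 10.4 in CT26 and 2.10 in MC38. In HT29, fibroblast markers summed to at most 1.36 CPM, the endothelial list to at most 42.5, of which ESAM, also a gene of tight junctions, held 34.3 to 42.1, and the leukocyte list to at most 2091, of which the lysozyme gene LYZ held 1698 to 2066.

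The promoters of Epcam, Cldn4 and Tjp1 are shown because Epcam and Cldn4 had no counts in any mouse library while Tjp1 was abundant in all of them. Each is the 250 bases before the RefSeq start site on GRCm38.p6, read 5′ to 3′ on the gene's strand, with the E-box CAGGTG (on the other strand, CACCTG) in capitals. They lie at chr17:87635729-87635978 on the plus strand for Epcam, chr5:134946935-134947184 on the minus strand for Cldn4 and chr7:65371245-65371494 on the minus strand for Tjp1.
Epcam: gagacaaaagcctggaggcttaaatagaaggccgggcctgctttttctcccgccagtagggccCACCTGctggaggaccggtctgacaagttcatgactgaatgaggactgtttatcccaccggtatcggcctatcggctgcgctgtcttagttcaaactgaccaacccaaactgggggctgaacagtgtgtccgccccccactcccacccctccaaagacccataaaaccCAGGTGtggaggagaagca
Cldn4: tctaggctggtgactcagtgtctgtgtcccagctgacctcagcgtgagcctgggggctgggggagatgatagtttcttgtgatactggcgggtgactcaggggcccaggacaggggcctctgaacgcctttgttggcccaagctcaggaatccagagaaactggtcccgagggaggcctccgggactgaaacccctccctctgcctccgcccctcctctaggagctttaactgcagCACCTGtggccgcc
Tjp1: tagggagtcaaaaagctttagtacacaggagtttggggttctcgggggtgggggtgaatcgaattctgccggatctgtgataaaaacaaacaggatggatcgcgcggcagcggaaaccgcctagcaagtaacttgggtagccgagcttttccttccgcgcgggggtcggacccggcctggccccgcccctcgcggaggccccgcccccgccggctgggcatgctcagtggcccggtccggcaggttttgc
The Epcam window held 2 E-boxes, which began 187 and 19 bases before the start site. Cldn4 held 1, which began 14 bases before it, and Tjp1 held none. The Tjp1 window, however, lay inside the annotated gene (chr7:65296165-65527781). The start at the annotated 5′ end of Tjp1 was not examined. In all, 9 such windows were examined, for 7 of the 10 genes. Of the 9, 5 held the motif: those of Epcam, Cldn4 and F11r, and 1 of the starts of Cldn7 and of Ocln. No window of Cdh1, Cdh2 or Cdh17 was examined. The count thus leaves out Cdh2, which had counts in all 22 mouse libraries, and does not compare silent with expressed members. Over all 32851 mouse promoters examined, 17.2% held the E-box. The grainyhead motif AACCGGTT was in none of the 9 windows and in 0.116% of all promoters. A match is a description of these letters and says nothing of a factor being bound.

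The lines differed mainly in which junction genes had counts at all. In HT29 all members but CDH2, with 0 or 1 count per library, were well above 0, whereas Cdh2 and Tjp1 were the only members above 10 CPM in both mouse lines. Epcam and Cldn4 had 0 counts in all 22 mouse libraries, which allows a level of up to 0.00685 CPM in them together (3 counts of their total; this limit, like all intervals on counts, covers counting error only). Cldn7 had 1 count in those libraries together and F11r had 4. Since these are bulk samples, fewer cells with an mRNA and less of it per cell cannot be told apart.

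**Figure D1:**
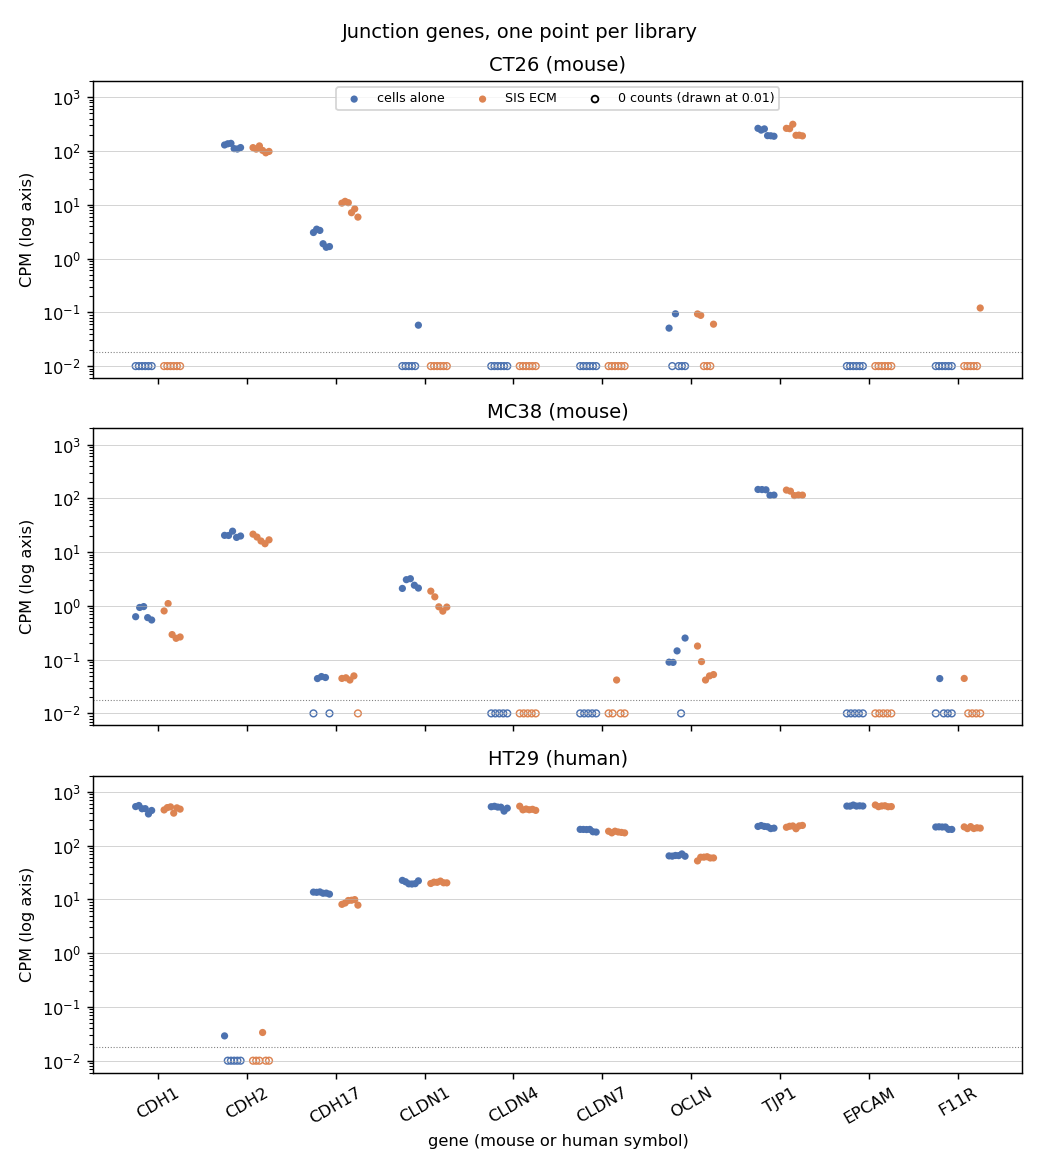
Level of each junction gene in CPM on a log axis, 1 point per library, for CT26, MC38 and HT29. Blue points are cells alone, orange points SIS ECM, and open circles mark libraries with 0 counts, drawn at 0.01. Epcam and Cldn4 are open in all 22 mouse libraries, and CDH2 is the only gene near 0 in HT29.

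Among the cadherins, CDH1 was abundant only in HT29 and Cdh2 only in the mouse lines. Since HT29 was the only human line, species and cell line cannot be told apart. E-cadherin (Cdh1, chr8:106603351-106670246, mm10) had 0 counts in all 12 CT26 libraries. In MC38 cells alone it had 14, 21, 20, 13 and 13 counts, or 0.736 ± 0.199 CPM (SD, n = 5). This was at least 26.8-fold higher than in CT26 cells alone, taking 3 counts over the CT26 group as its limit (0.0274 CPM). In HT29 cells alone CDH1 ran from 387 to 556 CPM, with a median of 485.

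N-cadherin (Cdh2) showed the opposite pattern. It reached 123 ± 13.1 CPM (SD, n = 6) in CT26 cells alone and 20.8 ± 2.17 CPM (SD, n = 5) in MC38, and no MC38 library reached the lowest CT26 library. The fitted level was 6.71-fold lower in MC38 (log2 difference -2.75 ± 0.11 SE; adjusted p = 9.2e-17, by the quasi-likelihood F test of edgeR, Benjamini-Hochberg adjusted over all genes tested, as for every adjusted p below). HT29 held 1 count of CDH2 in the cells-alone libraries together and 1 in the SIS ECM libraries together.

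LI-cadherin (Cdh17, chr4:11758147-11817895) separated the mouse lines. CT26 cells alone had 29 to 71 counts per library (lowest 1.62, median 2.47 and highest 3.52 CPM), whereas each MC38 library had 0 or 1. Summed over cells alone, 278 counts in CT26 stood against 3 in MC38, a ratio of levels of 93.4 (95% interval 31.6 to 456). HT29 cells alone ran from 12.5 to 13.8 CPM, with a median of 13.3.

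Of the tight junction genes, Cldn1 (chr16:26356642-26371841), a barrier claudin, was seen in MC38 and hardly in CT26. MC38 cells alone had 285 counts over 5 libraries and CT26 cells alone 1 over 6, a ratio of levels of 283 (95% interval 50.4 to 11210). Occludin (Ocln, chr13:100496507-100552718) was close to the limit of detection in both, with 13 counts in MC38 cells alone against 3 in CT26 (ratio 4.30, 95% interval 1.2 to 23.5). In HT29 cells alone, the lowest, median and highest libraries had 19.3, 20.4 and 22.5 CPM of CLDN1, and 63.4, 64.7 and 70.0 CPM of OCLN. CLDN4, a claudin that tightens many epithelia, had 438, 519 and 538 CPM there, and CLDN7, the partner of EPCAM, 178, 199 and 200 CPM. F11R had 200, 222 and 224 CPM, and EPCAM 542, 543 and 567 CPM.

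The scaffold Tjp1 (chr7:65296165-65527781) was abundant in all 3 lines. It reached 223 ± 35.9 CPM (SD, n = 6) in CT26 and 133 ± 17.0 CPM (SD, n = 5) in MC38 cells alone, and 222 ± 10.9 CPM (SD, n = 6) in HT29. The fitted level was 1.90-fold lower in MC38 than in CT26 (log2 difference -0.93 ± 0.14 SE; adjusted p = 1.3e-06). All 5 members that passed the count filter over the mouse libraries (Cdh1, Cdh2, Cdh17, Cldn1 and Tjp1) differed between MC38 and CT26 cells alone, where 78.1% of all genes tested did, so a difference there says little about a gene.

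Per kilobase of exon, the order of levels could be read in mouse. In CT26 cells alone, Tjp1 (24.1 to 33.8 CPM per kilobase) lay above Cdh2 (13.5 to 17.2), and Cdh2 above Cdh17 (0.362 to 0.787), with no overlap between neighbours. In MC38 cells alone, Tjp1 (14.5 to 18.7 CPM per kilobase) was followed by Cdh2 (2.32 to 3.03), Cldn1 (0.435 to 0.660) and Cdh1 (0.119 to 0.212), again without overlap. The remaining members were near 0 and their order was not resolved. Cdh2 overlaps the annotated gene Gm15485, and Tjp1 overlaps Gm44792, Gm44794 and Gm44795, and since the use of strand in counting is not known, reads of such partners cannot be told apart. No order is given for HT29, for which exon lengths were not used here.

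SIS ECM raised Cdh17 in CT26. Levels rose from 1.62, 2.47 and 3.52 CPM (lowest, median and highest library) with cells alone to 5.90, 9.55 and 11.6 CPM with SIS ECM, and every SIS ECM library lay above every cells-alone library, a separation in either direction that 6.95% of all genes tested showed. The fitted rise was 3.61-fold (log2 fold change 1.85 ± 0.23 SE; adjusted p = 1.5e-04). The rise was as large within each number range: means went from 3.30 to 11.1 CPM in libraries 1 to 3 (log2 1.74) and from 1.73 to 7.13 in libraries 4 to 6 (log2 2.05).

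Only 3 members passed the count filter in CT26, and Cdh17 was the 1 that passed the test, where 9.25% of all genes tested did (6.15% higher). Cdh2 had 109, 123 and 139 CPM with cells alone and 92.5, 105 and 124 CPM with SIS ECM (lowest, median and highest), and the groups overlapped. Its log2 fold change of -0.21 ± 0.09 (SE) missed the threshold (adjusted p = 0.165). With the replicate number as a block, Cdh2 passed (log2 -0.21; adjusted p = 0.0194), as it did in libraries 1 to 3 (adjusted p = 0.0440) and 4 to 6 (adjusted p = 0.00826) taken alone. Tjp1 had a log2 fold change of 0.09 ± 0.14 (SE; 95% interval -0.21 to 0.38; adjusted p = 0.761). Its libraries split by number instead, at 245 to 264 CPM in 1 to 3 and 188 to 193 in 4 to 6 among cells alone.

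Summed colorectal epithelium markers, Cdh17 included, moved with the culture in CT26, from 47.8 to 62.7 CPM with cells alone to 72.1 to 88.6 with SIS ECM. Besides Cdh17, the keratin gene Krt18 rose (6.84 ± 1.25 to 14.8 ± 4.89 CPM, SD, n = 6; log2 1.11 ± 0.20 SE; adjusted p = 0.00252). Fibroblast markers summed to 53.8 to 97.8 CPM against 69.2 to 130, and leukocyte markers to 1.23 to 3.00 against 1.87 to 10.4. The part of these in the Cdh17 result was not tested.

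**Figure D2:**
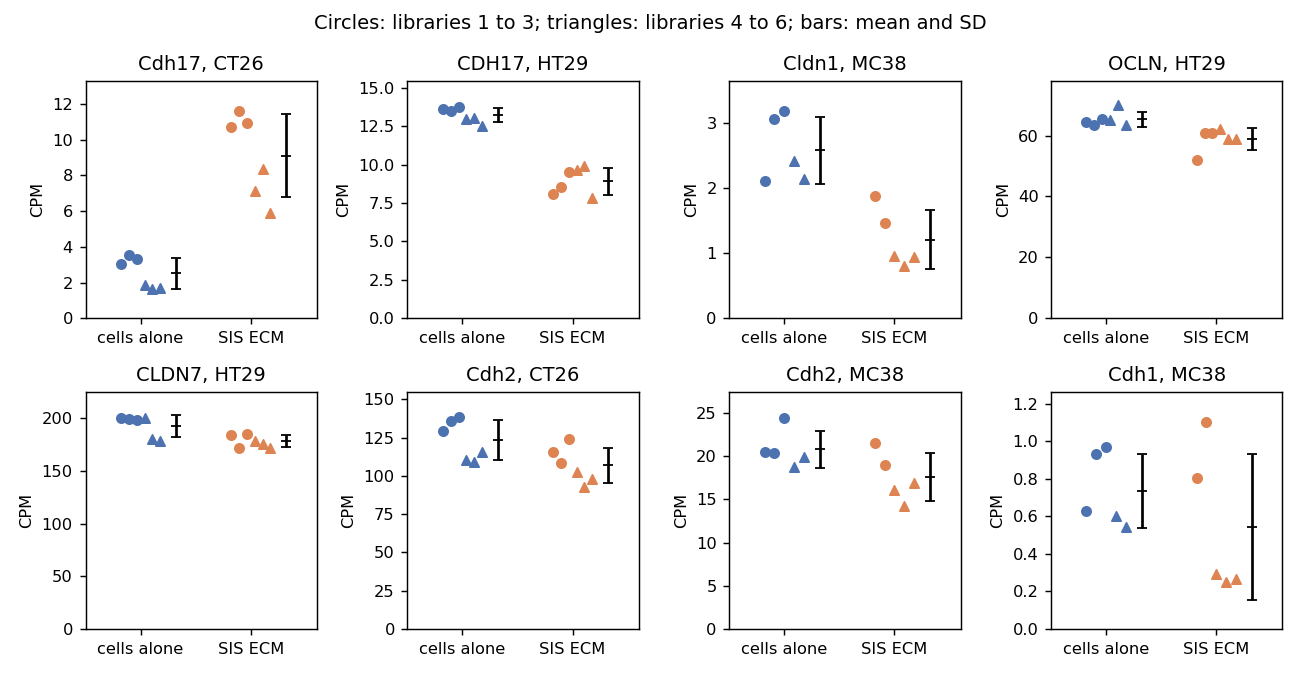
Level in CPM, from 0, of the junction genes on which the comparisons turn, in each cells-alone (blue) and SIS ECM (orange) library; circles are libraries 1 to 3, triangles libraries 4 to 6, and bars the mean and SD. Cdh17 lies wholly higher with SIS ECM in CT26 and wholly lower in HT29, and Cldn1 wholly lower in MC38.

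In MC38, SIS ECM lowered Cldn1. Cells-alone libraries 1 to 5 had 2.11, 3.07, 3.20, 2.42 and 2.14 CPM, and SIS ECM libraries 1, 3, 4, 5 and 6 had 1.88, 1.47, 0.960, 0.797 and 0.949 CPM. Every SIS ECM library lay below every cells-alone library (the groups were apart for 9.65% of all genes tested), although the counts were small (47 to 69 against 16 to 42 per library). The fitted level was 2.12-fold lower (log2 fold change -1.08 ± 0.24 SE; adjusted p = 0.0152). Within libraries 1 to 3 the log2 fold change was -0.74 (adjusted p = 0.0159), and within 4 to 6 it was -1.33 (adjusted p = 0.00289).

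Cldn1 was the 1 of 4 tested members to pass in MC38, where 9.17% of all genes did (5.36% lower). Cdh1 had 0.628, 0.933, 0.969, 0.604 and 0.546 CPM with cells alone and 0.804, 1.10, 0.292, 0.249 and 0.264 CPM with SIS ECM. The groups overlapped, because SIS ECM libraries 1 and 3 were high and 4 to 6 were low. Its log2 fold change was -0.42 ± 0.41 (SE; 95% interval -1.29 to 0.46; adjusted p = 0.551), at 0.17 within libraries 1 to 3 and -1.08 within 4 to 6, neither past the threshold (adjusted p = 0.731 and 0.132).

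Cdh2 in MC38 had 20.5, 20.3, 24.5, 18.7 and 19.9 CPM with cells alone and 21.5, 19.0, 16.1, 14.3 and 16.9 with SIS ECM. The groups overlapped and the log2 fold change was -0.24 ± 0.11 (SE; adjusted p = 0.185), although it passed in libraries 4 to 6 alone (-0.30; adjusted p = 0.0373). Tjp1 had a log2 fold change of -0.10 ± 0.10 (SE; 95% interval -0.31 to 0.11; adjusted p = 0.562). With a term for number range, Cdh1 was at log2 -0.27, Cdh2 at -0.20 and Tjp1 at -0.03, none past the threshold. Fibroblast markers in MC38 summed to 3621 to 4563 CPM with cells alone and 2681 to 4241 with SIS ECM (over all libraries, Col3a1 was the most abundant, at 1210 to 2796), and Col1a1, a fibrillar collagen gene, fell (7.98 ± 0.85 to 0.845 ± 0.272 CPM, SD, n = 5; log2 -3.23 ± 0.18 SE; adjusted p = 1.7e-06). The part of these in the Cldn1 result was not tested.

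HT29 showed a fall of CDH17, opposite in sign to CT26. Cells-alone libraries had 12.5, 13.3 and 13.8 CPM (lowest, median and highest) and SIS ECM libraries 7.81, 9.04 and 9.89 CPM. The groups did not overlap, in either direction a trait of 6.39% of all genes tested. The fitted level was 1.48-fold lower (log2 fold change -0.57 ± 0.06 SE; adjusted p = 1.3e-05). It was lower within libraries 1 to 3 (log2 -0.64) and within 4 to 6 (log2 -0.50).

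OCLN fell slightly in HT29. Cells-alone libraries had 63.4, 64.7 and 70.0 CPM and SIS ECM libraries 51.9, 59.9 and 62.0 CPM, so the groups did not overlap, as was the case for 6.39% of all genes tested. The fitted level was 1.11-fold lower (log2 fold change -0.15 ± 0.05 SE; adjusted p = 0.0358). This call was lost when cells-alone library 1, 3, 4 or 5 or SIS ECM library 1, 5 or 6 was left out (adjusted p = 0.0589, 0.0674, 0.0671, 0.0603, 0.0520, 0.0706 and 0.0655 in that order).

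CDH17 and OCLN were the 2 of 9 tested members to pass in HT29, where 13.5% of all genes did (5.79% lower). CLDN7 had 178, 199 and 200 CPM with cells alone and 172, 177 and 185 with SIS ECM. Its log2 fold change of -0.11 ± 0.04 (SE) missed the threshold (adjusted p = 0.0847) but passed without cells-alone library 5 (adjusted p = 0.0404) or 6 (adjusted p = 0.0455). In the authors' deposited table its log2 fold change was -0.14, with an adjusted p of 0.0158. CLDN4 had a log2 fold change of -0.08 ± 0.06 (SE; 95% interval -0.20 to 0.03; adjusted p = 0.352).

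The other members in HT29 stayed within narrow intervals. The log2 fold change of EPCAM had a 95% interval of -0.09 to 0.06, that of F11R -0.09 to 0.09, that of CLDN1 -0.11 to 0.10 and that of TJP1 -0.07 to 0.12. CDH1, the E-cadherin gene, had the widest of these, at -0.18 to 0.15. EPCAM itself had 542, 543 and 567 CPM with cells alone and 527, 538 and 569 with SIS ECM, so its groups overlapped almost fully. Summed colorectal epithelium markers, CDH17 included, were 9321 to 10670 CPM with cells alone and 8364 to 10310 with SIS ECM. Of the 10, 4 fell, CDH17 itself among them, where 5.79% of all genes tested fell. Besides CDH17, LGALS4 (log2 -0.38 ± 0.06 SE; adjusted p = 1.5e-04) and KRT20 (log2 -0.28 ± 0.05 SE; adjusted p = 0.00124) were among the 4. The part of the other markers in the CDH17 result was not tested.

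**Figure D3:**
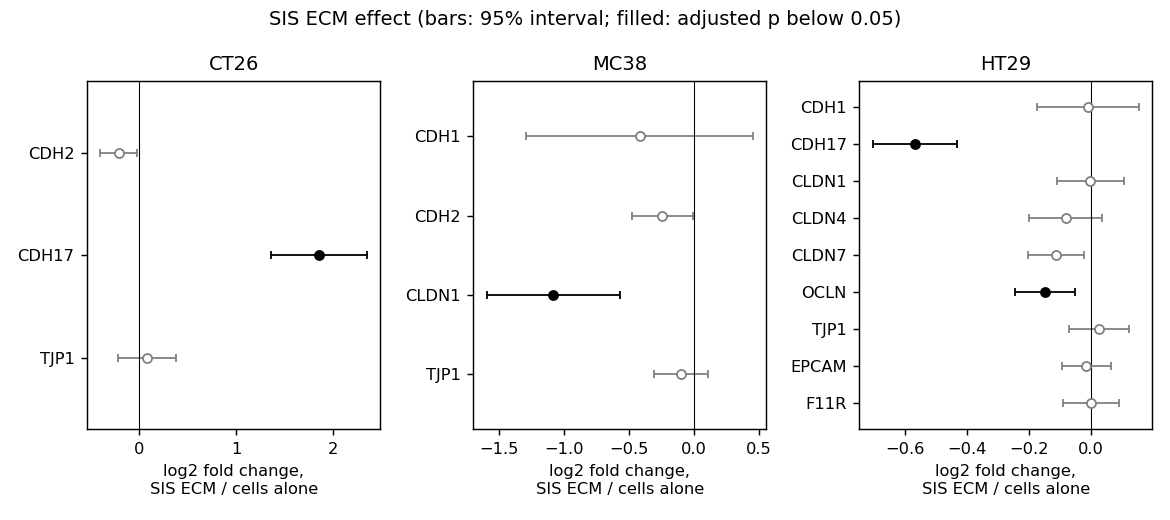
Log2 fold change of each tested junction gene, SIS ECM over cells alone, with its 95% interval, per line; filled points have an adjusted p below 0.05 and the axes differ between panels. Filled are Cdh17 in CT26, Cldn1 in MC38, and CDH17 and OCLN in HT29.

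The responses themselves were compared between lines for members tested in both. For CDH17, the response in HT29 (log2 -0.57) lay below that in CT26 (log2 1.85), with a difference of -2.42 ± 0.20 (SE; adjusted p = 7.2e-11). For CLDN1, the response in HT29 (log2 -0.0034) lay above that in MC38 (log2 -1.08), with a difference of 1.07 ± 0.20 (SE; adjusted p = 0.00086). Over all genes tested, 10.9% differed between HT29 and CT26 and 6.1% between HT29 and MC38. No difference passed for TJP1 (HT29 minus CT26 -0.06, 95% interval -0.34 to 0.22; HT29 minus MC38 0.12, -0.18 to 0.41) or for CDH1 (HT29 minus MC38 0.39, -0.33 to 1.11). Between MC38 and CT26, Cdh2 differed by -0.04 (95% interval -0.35 to 0.26) and Tjp1 by -0.19 (-0.58 to 0.20), and neither passed, where 8.27% of all genes did. Cdh17 and Cldn1 could not be compared between the mouse lines, since each was near 0 in one of them.

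Around these members, 131 other genes of cell junctions and of their control were measured, in 10 lists. In CT26, 2 of 61 tested rose and 6 fell (13.1% of those tested, against 9.25% of all genes). In MC38, 3 of 62 rose and 6 fell (14.5% against 9.17%), and in HT29 11 of 98 rose and 5 fell (16.3% against 13.5%). These shares are descriptions, and nothing particular to the lists is read from them. All but 4 of these calls in CT26, 3 in MC38 and 4 in HT29 held when any 1 library was left out. The genes named next are among those that held, unless a loss is stated.

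Of 15 other cadherins, 7 were tested in CT26, 10 in MC38 and 7 in HT29. In CT26 the protocadherin Pcdh7 rose from 0.452 ± 0.150 to 5.01 ± 1.10 CPM (SD, n = 6; log2 3.44 ± 0.22 SE; adjusted p = 4.6e-07), while Pcdh19 fell from 128 ± 4.59 to 81.4 ± 7.64 CPM (SD, n = 6; log2 -0.66 ± 0.07 SE; adjusted p = 3.1e-05). In MC38 the giant cadherin Fat1 fell (log2 -0.30 ± 0.07 SE; adjusted p = 0.0160). Fat1 also fell in CT26 (log2 -0.41 ± 0.12 SE; adjusted p = 0.0394), but that call was lost in 7 of 12 omissions of 1 library. The median log2 fold change of the tested cadherins was -0.13 in CT26, -0.02 in MC38 and 0.04 in HT29, and that of all genes tested 0.0082, 0.0062 and -0.0046.

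The table held 15 other claudins, of which 3 passed the count filter in CT26, 1 in MC38 and 7 in HT29. In HT29, CLDN2, which forms a cation pore and makes the seal leakier, rose from 87.3 ± 3.60 to 121 ± 6.04 CPM (SD, n = 6; log2 0.47 ± 0.04 SE; adjusted p = 1.3e-06). CLDN15, another pore-forming claudin of the intestine, fell (log2 -0.34 ± 0.09 SE; adjusted p = 0.0138). Of 23 plaque, MARVEL and polarity genes, 21 were tested in HT29 and 3 rose: CXADR (log2 0.27 ± 0.06 SE), PRKCI (0.17 ± 0.04) and PARD6B (0.30 ± 0.08). In MC38, 10 were tested and 1 fell, the polarity gene Pard6a (log2 -0.61 ± 0.14 SE; adjusted p = 0.0158).

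Desmosomes and gap junctions gave few calls. The desmosomal cadherin DSC2 rose in HT29 (log2 0.21 ± 0.04 SE; adjusted p = 6.8e-04), 1 of 9 tested there. The plakophilin Pkp1 fell in MC38 (log2 -0.45 ± 0.10 SE; adjusted p = 0.0156), 1 of 3 tested. Of the connexins, GJB2 rose and GJB1 fell in HT29 (log2 0.24 ± 0.04 and -0.34 ± 0.05 SE; adjusted p = 1.8e-04 and 3.8e-04).

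Genes listed as catenins and adherens junction plaque were tested almost completely (11 of 13 in each mouse line and 12 in HT29). None passed in CT26, and 1 rose in each of the other lines, LIMD1 (log2 0.22 ± 0.06 SE; adjusted p = 0.0156) in HT29 among them. Of 9 nectins and related molecules, NECTIN3 rose in HT29 (log2 0.46 ± 0.08 SE; adjusted p = 0.00117). Of 10 genes that act with EPCAM or on its cleavage, 2 fell in CT26: Lef1, a partner of its released tail (log2 -0.47 ± 0.09 SE; adjusted p = 0.00536), and Adam17, a sheddase (log2 -0.33 ± 0.07 SE; adjusted p = 0.00655). Epcam itself had no counts there. In MC38, Fhl2, another partner, rose (log2 0.80 ± 0.10 SE; adjusted p = 3.9e-04). In HT29, 2 of 9 tested rose: ADAM17 (log2 0.12 ± 0.04 SE; adjusted p = 0.0430), opposite in sign to CT26, and ST14 (log2 0.18 ± 0.06 SE; adjusted p = 0.0449). Each of these 2 calls was lost in 10 of 12 omissions of 1 library.

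The transcription factors on either side of E-cadherin were unevenly detected. Of 10 E-cadherin repressors, 8 passed the count filter in CT26, 9 in MC38 and 4 in HT29, where TWIST1, TWIST2 and GSC were at 0. Of 16 epithelial activators, 4 passed in CT26, 2 in MC38 and 16 in HT29. With SIS ECM, 1 repressor rose in CT26 and 2 fell in MC38, of which Tcf3 held in every omission (log2 -0.44 ± 0.10 SE; adjusted p = 0.0160). In HT29 no repressor passed, and 2 activators fell: the grainyhead factor GRHL3 (11.8 ± 1.57 to 5.82 ± 0.56 CPM, SD, n = 6; log2 -1.02 ± 0.09 SE; adjusted p = 1.0e-06) and HNF4A, a regulator of intestinal genes (log2 -0.42 ± 0.07 SE; adjusted p = 3.2e-04).

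**Figure D4:**
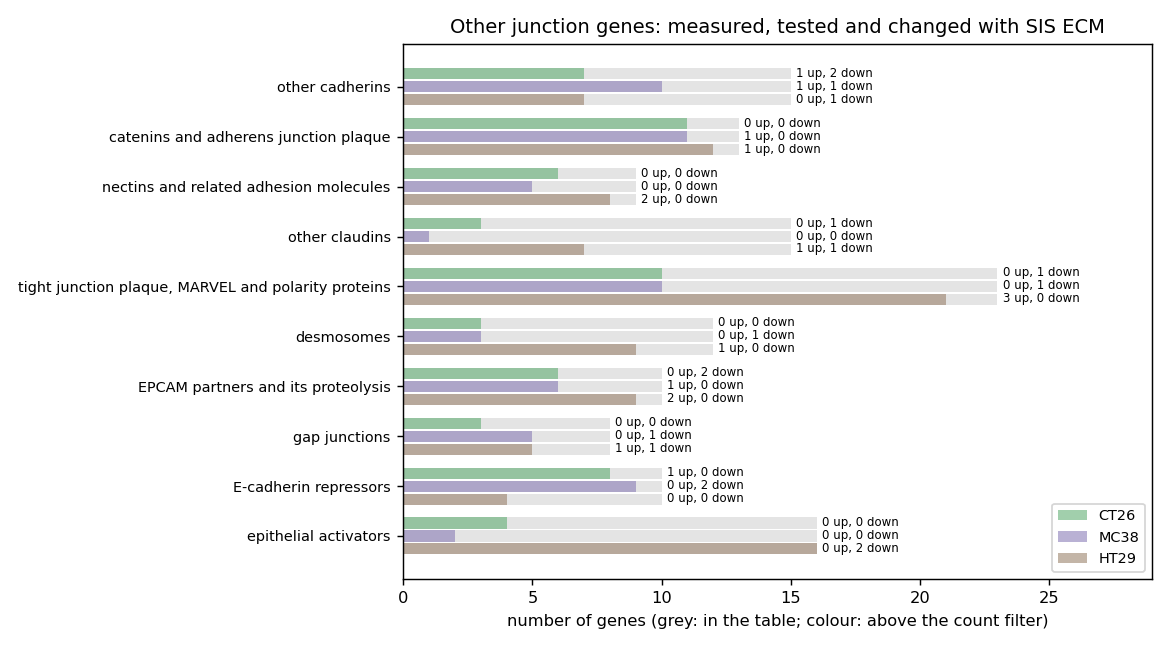
For 10 lists of other junction genes, the number in the table (grey), the number above the count filter (colour, per line) and, beside each bar, how many rose or fell with SIS ECM. For the epithelial activators the colour covers 16 of 16 in HT29, 4 in CT26 and 2 in MC38, whereas for the E-cadherin repressors it covers 4 of 10 in HT29, 8 in CT26 and 9 in MC38.

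The genes whose levels followed a changed member most closely were found by Pearson's r of log2 CPM over the libraries of the line. These libraries share the culture difference and, in mouse, the split by number, so r is a description. For Cdh17 in CT26 these were Sp100, Usp18 and Arl4c (r = 0.987, 0.983 and 0.981 over 12 libraries). For Cldn1 in MC38 they were Stard4, Hsp90b1 and Endod1 (r = 0.978, 0.977 and 0.976 over 10). For CDH17 in HT29 they were AZGP1, ACSS2 and SLC39A5 (r = 0.977, 0.969 and 0.968 over 12), and for OCLN they were EPB41L5, ZNF841 and RBM14-RBM4 (r = 0.929, 0.927 and 0.909 over 12).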

How the data were processed

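PolyA RNA from 22 mouse and 12 human spheroid libraries was sequenced as read pairs after a stranded library preparation, pooled within species, per the labels' protocols. The submitters' processing notes list limma, RSEM 1.3.1, STAR 2.7.0f, cutadapt 1.18, mm10 and hg38, without roles. The use of strand in counting was not given in the sources used here. Expected counts per gene were deposited by the authors without normalisation. From 2244 to 2621 values per mouse library and from 3811 to 4113 per human library were not whole, and all were rounded. For each line the authors' comparison table holds, per its file headers, p-values, a t statistic (a score), a signed fold and a log2 fold change. The 34 per-sample columns of those tables were not used.

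Each line was fitted with edgeR 4.0.16 (R 4.3.3; quasi-likelihood F test, two-sided; TMM; filterByExpr, minimum count 10; Benjamini-Hochberg over all genes tested; threshold 0.05). Mouse lines were compared in 1 fit of all mouse libraries, and HT29 with mouse over 16667 genes matched by symbol. CPM values are TMM-scaled. SE is the log2 fold change over the root of F. Alternatives were DESeq2 1.42.0, other scalings and filters, terms for number range and replicate number, and leaving out libraries. The fits were tested on simulated data. Mouse coordinates are from GENCODE on mm10, per kilobase values use merged exons, and promoters are RefSeq's. Human coordinates were not used here.

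Groups and replicate numbers are those of the labels, which do not say whether libraries came from separate cultures, so the p-values reflect only how these libraries vary, which may be technical. None of 80 same-group pairs held identical values (chi-square per degree of freedom 1.92 to 147.9). Same-numbered libraries of the 2 cultures deviated together in CT26 (r from 0.213 to 0.459) and MC38 (r from 0.193 to 0.308). The main fits did not pair libraries. A block for replicate number was run only as an alternative in each line, since the labels name no pairs. However, the cells-alone library correlated best with the SIS ECM library of its own number for only 2 of 6 numbers in CT26 and 1 of 4 in MC38, so pairing by number and the split by number range cannot be told apart. In HT29 r ran from -0.0992 to 0.0744. The members and lists were chosen with earlier results of these data known. Named genes were all members, up to 3 genes per list and line with the smallest adjusted p below 0.05, and the 3 genes most correlated with each changed member (mean log2 CPM of at least 2, no predicted or clone-named genes), of which the text names a part.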

Additional observations from a re-analysis of the deposited data

Results flagged for a closer look

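In 4 of 32 groups of libraries tested over the members, 1 library lay far from the others by Dixon's criterion, which chance alone gives in about 1 group in 20. All 4 were in HT29. CLDN4 was highest in SIS ECM library 1, at 540 CPM, and OCLN was lowest in the same library, at 51.9 CPM. EPCAM was highest in cells-alone library 3, at 567 CPM, and OCLN was highest in cells-alone library 5, at 70.0 CPM. Without SIS ECM library 1 the log2 fold change of OCLN was -0.12 (adjusted p = 0.0520), and without cells-alone library 5 it was -0.13 (adjusted p = 0.0603), by edgeR's quasi-likelihood test.

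The response to SIS ECM differed between lines for CDH17, by -2.42 on the log2 scale (HT29 minus CT26), and for CLDN1, by 1.07 (HT29 minus MC38), each by a test of the difference itself in edgeR. Both differences passed in all 38 alternatives run, at -2.53 to -2.33 for CDH17 and 0.94 to 1.28 for CLDN1.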

How the results depend on the processing

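Cdh17 in CT26 and CDH17 in HT29 kept their direction and call in all 21 alternatives run for each, and Cldn1 in MC38 in all 19 (adjusted p up to 0.0442). In CT26, 2 members passed rather than 1 with a term for number range, with the replicate block and in either range alone, Cdh2 being added. In MC38, 2 passed in libraries 4 to 6 alone. In HT29, 1 passed rather than 2 in either range alone, and from 1 to 3 when 1 library was left out; DESeq2 added CLDN7 (adjusted p = 0.0349). No called value changed sign. The replicate block changed no other member's call.

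Counts of all genes moved more. In CT26 they went from 1135 to 3545 with the range term, 2281 with the replicate block, and 2484 and 2333 in libraries 1 to 3 and 4 to 6 alone. In MC38 they went from 1206 to 3246 with the range term, 5287 and 2318 in the ranges alone, and 626 to 1948 with 1 library left out. In HT29 they went from 2058 to 719 and 417 in the ranges alone. Genes whose response differed went from 1165 to 2066 with the replicate block and 3740 with the range term for MC38 against CT26. For HT29 against CT26 they went from 1332 to 2014 with the block and 2807 with the term. For HT29 against MC38 they went from 749 to 1867 with the term, 1471 with those lines fitted alone, and 491 to 917 with 1 library left out. The cause of these shifts was not tested. Depth limits the members near 0 in mouse.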
